A study of Mus musculus with 15 samples.

Results

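The claudins counted in mouse colon are described here across B6 mice and Irf1-/- mutants, untreated and after AOM/DSS. The 9 genes were listed by symbol (Cldn2, Cldn3, Cldn4, Cldn5, Cldn7, Cldn8, Cldn12, Cldn15 and Cldn23) and looked up in the 3 deposited count tables. All 9 were found in all 3 tables, among 12897 genes in any table and 12370 genes in all of them. Claudins are 4-pass membrane proteins whose strands form the tight junction, the seal between neighbouring epithelial cells. Some of them tighten the seal, whereas others line charge-selective pores that let sodium, other cations or water pass between cells. A shift from sealing to pore-forming claudins is a known feature of inflamed mucosa.

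RNA-seq covered distal colons of 15 mice of the C57BL/6 background, 3 in each of 5 groups. These were untreated wildtype mice in 2 sets (control set 1 and control set 2), untreated Irf1-/- mutants, and wildtype (B6) and Irf1-/- mice at D26 of AOM/DSS. Treated mice received the colon carcinogen azoxymethane (AOM, 7 mg/kg) on D1 and the epithelium-injuring polysaccharide dextran sulfate sodium (DSS, 2%) from D8 to D11, and were sacrificed at D26. Control set 2 was tabulated with the untreated mutants and control set 1 with the treated B6 mice, and the labels give both sets the same strain, genotype and treatment. The mutation is carried by every cell of the Irf1-/- mice, so immune and epithelial effects are not separated by this model. The study states an age of 8 to 10 weeks for its tumor protocol and none for the sequenced mice. Whole colon tissue was used, so for every claudin fewer cells that express it and less mRNA per cell cannot be told apart.

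Each library held 22266607 to 22869853 counted reads. Irf1 itself was at 79.4 to 123 CPM (counts scaled to the library total after TMM) in the 6 mutant libraries, below every B6 library (128 to 227 CPM), and the counts do not show which exons they came from. The marker genes fixed for colon epithelium were all present, 15 of 15, and summed to 8723 to 11050 CPM. Treated B6 libraries stood apart in GC content: GC-rich genes deviated upward in them, by a log2 slope of 0.136 to 0.285 per 10% GC, against -0.124 to 0.0316 in the other 12 libraries. Claudin transcripts range from 40.6% GC (Cldn8) to 62.7% GC (Cldn3), so values with a correction for GC are also given for several results. The treated B6 libraries are all of 1 condition, so library and treatment cannot be told apart in this slope.

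Per kb of exon, Cldn7 and Cldn3 were the most abundant claudin mRNAs of the colon. Both are sealing claudins of the epithelium, and Cldn7 also lies along the lateral membrane. Cldn7 averaged 236 ± 16.9 CPM per kb and Cldn3 188 ± 27.9 CPM per kb (SD, 15 libraries). Cldn7 ranked first and Cldn3 second in 15 of 15 libraries, and together they held 67.4% to 72.5% of the summed CPM per kb of the 9 genes. A middle tier followed with means of 38.6 ± 6.06 CPM per kb for Cldn2, 38.0 ± 12.2 for Cldn8, 33.1 ± 10.9 for Cldn4 and 30.1 ± 7.23 for Cldn15. These 4 neighbours in the order did not differ beyond their spread over libraries, and their order varied with the group. Cldn2 came next after Cldn3 in all 3 libraries of control set 1, whereas Cldn4 did so in all 3 libraries of treated Irf1-/- mice. Cldn12 averaged 21.5 ± 2.46 CPM per kb and Cldn23 14.2 ± 2.71 CPM per kb. Cldn5, a sealing claudin best known from blood vessels, was last in 15 of 15 libraries at 6.79 ± 1.15 CPM per kb. Cldn23 was next to last in 14 libraries, the exception being replicate 3 of control set 2, where Cldn4 took that place.

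**Figure D1:**
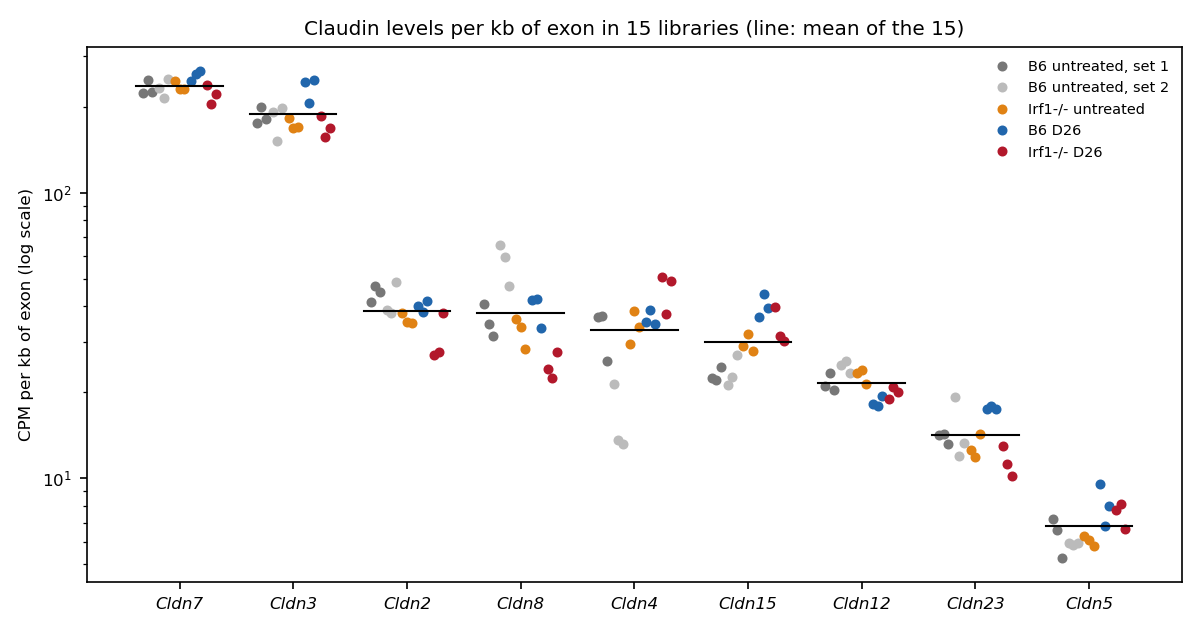
Level of each claudin per kb of exon (y axis, CPM per kb, log scale) in the 15 libraries, with points coloured by group and a line at the mean of the 15. Cldn7 and Cldn3 lie above all others in every library, and the points of Cldn4 and Cldn8 spread widest.

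The range over libraries differed between the genes more than their rank did. Cldn7 varied least, by 1.30-fold from its lowest library (301 CPM) to its highest (392 CPM), and Cldn12 varied by 1.44-fold (70.8 to 102 CPM). Cldn4 varied most, by 3.83-fold (24.0 to 92.0 CPM), followed by Cldn8 with 2.91-fold (52.9 to 154 CPM). The lowest count of any claudin in any library was 168 reads (Cldn5). In some groups Cldn5 and Cldn23 spread less between mice than counting error alone would give, as with 188, 187 and 188 reads of Cldn5 in control set 2.

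**Figure D2:**
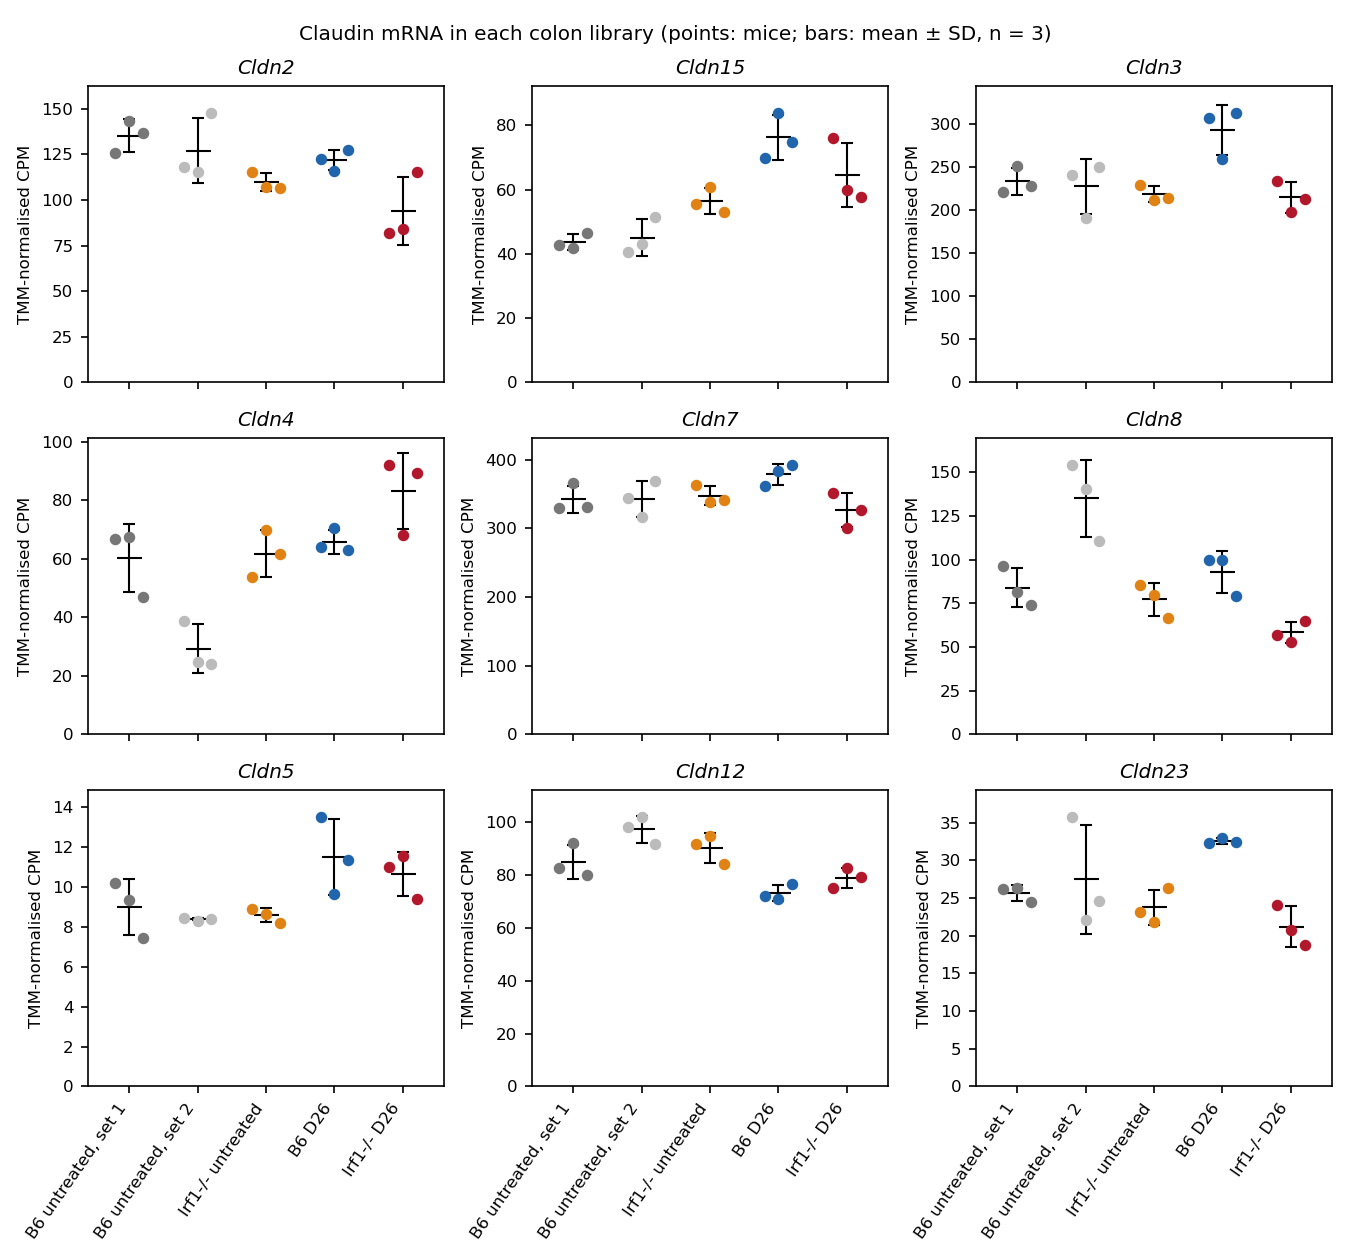
TMM-normalised CPM (y axis, from 0) of the 9 claudins in each of the 5 groups, with 1 point per mouse and bars for the mean ± SD (n = 3). Control set 2 is low for Cldn4 and high for Cldn8, and treated B6 mice are high for Cldn15.

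Upstream sequence is shown for claudins whose mRNA moved together or apart in these libraries: Cldn3 and Cldn7, the pair with the most similar profile over libraries, Cldn4, the gene with the widest range, and Cldn15. Cldn4 and Cldn3 are neighbours on chromosome 5 with 0 annotated genes between them, transcribed away from each other. The RefSeq promoter table (GRCm38.p6) held 10 start sites for 7 of the 9 genes, and Cldn8 and Cldn23 had no entry. The 250 bases upstream of each start were searched on both strands for the IRF element (GAAA, any 2 bases, GAAA, a core of sites bound by IRF proteins), CAGGTG (the E-box bound by Snail and Zeb repressors), GGGCGG (the GC box of Sp factors) and TTTATG (bound by the intestinal CDX factors). Printed 5' to 3' on the strand of the gene, ending at the start site, the matches to these 4 motifs are in capitals, and no match overlaps another. The windows are chr11:69964529-69964778 (plus strand) for the upstream of the Cldn7 starts, chr5:134985964-134986213 (plus) for Cldn3, chr5:134946935-134947184 (minus) for Cldn4 and chr5:136967619-136967868 (plus) for Cldn15.
Cldn7: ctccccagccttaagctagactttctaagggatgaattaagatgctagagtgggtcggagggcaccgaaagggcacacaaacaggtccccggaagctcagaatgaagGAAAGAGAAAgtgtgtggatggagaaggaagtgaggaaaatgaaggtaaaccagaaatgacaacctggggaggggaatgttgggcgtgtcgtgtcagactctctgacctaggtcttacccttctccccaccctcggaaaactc
Cldn3: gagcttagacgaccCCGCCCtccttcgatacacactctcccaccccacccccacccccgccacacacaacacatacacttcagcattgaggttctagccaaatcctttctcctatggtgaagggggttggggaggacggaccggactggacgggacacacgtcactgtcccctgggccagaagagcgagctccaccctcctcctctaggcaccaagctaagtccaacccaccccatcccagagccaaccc
Cldn4: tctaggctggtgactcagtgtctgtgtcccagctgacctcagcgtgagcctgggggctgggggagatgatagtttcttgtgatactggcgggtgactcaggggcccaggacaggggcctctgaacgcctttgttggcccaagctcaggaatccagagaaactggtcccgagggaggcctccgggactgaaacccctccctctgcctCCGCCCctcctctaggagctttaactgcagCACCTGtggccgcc
Cldn15: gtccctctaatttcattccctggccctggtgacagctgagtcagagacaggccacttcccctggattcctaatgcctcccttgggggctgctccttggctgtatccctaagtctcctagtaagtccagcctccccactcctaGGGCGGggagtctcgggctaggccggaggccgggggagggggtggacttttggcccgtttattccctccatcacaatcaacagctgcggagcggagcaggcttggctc
Of the 10 windows 1 held the IRF element, that of Cldn7 shown here, starting 143 bases before its upstream start site, beside 2.98% of the 32851 windows of all genes. The GC box was in 7 of the 10 claudin windows, those of 6 genes, beside 32.7% of all windows. The windows of Cldn12 overlap, and the same GC box is counted for its start sites 13 and 73 bases downstream. The E-box was in 2 windows, that of Cldn4, 14 bases before the start, and the other one of Cldn7 (17.2% of all windows), and the CDX letters were in 1, that of Cldn2 (10.8%). A match describes the letters of the window and does not show binding.

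The effect of the Irf1 genotype at steady state was tested between untreated mutants and control set 2. Cldn4 was higher in the mutants and Cldn8 was lower, both by more than 1.5-fold, and neither passed the calling threshold (a change of 1.5-fold or more and an adjusted p below 0.01). Of the 9 claudins, 0 were called by edgeR's quasi-likelihood test, beside 0.405% of the 12588 genes tested. At an adjusted p under 0.05 there were 2 claudins, Cldn4 and Cldn8 (1.25% of all genes), and at an unadjusted p under 0.05 there were 4 (10.4% of all genes). The Wald test of DESeq2 and the exact test of edgeR each called 2, the same Cldn4 and Cldn8. Shares of all genes called are given, here and below, for the quasi-likelihood test only. Calls by DESeq2 and the exact test therefore have no such share beside them. The groups did not overlap for 4 claudins (Cldn2, Cldn4, Cldn8 and Cldn15), beside 15.4% of all genes. The median log2 FC was -0.06 over the 9 claudins and 0.00 over all genes.

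The labels name no difference between the untreated B6 sets, yet Cldn4 and Cldn8 also separated them. Control set 2 was lower for Cldn4 and higher for Cldn8 than control set 1, with 0 of 9 claudins called (0.0644% of 12417 genes), 1 at an adjusted p under 0.05 (Cldn4, 0.572% of genes) and 3 at an unadjusted p under 0.05 (17.2% of genes). DESeq2 and the exact test each called 2, Cldn4 and Cldn8. These 2 claudins were also the ones whose control sets did not overlap, beside 21.4% of genes. Against control set 1, the untreated mutants showed neither difference, with the values given next.

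Cldn4, a sealing claudin of the colon surface that also restricts cation passage, was the most variable of the 9. It stood at 53.8, 69.9 and 61.5 CPM in untreated mutants and at 38.8, 24.8 and 24.0 CPM in control set 2. In control set 1 it stood at 66.7, 67.4 and 46.8 CPM, within or near the range of the mutants. The mutants lay above every library of control set 2 and overlapped control set 1. The log2 FC of the mutants was 1.08 (SE 0.17, adjusted p = 0.0138) over control set 2 and 0.03 (SE 0.14, adjusted p = 0.926) over control set 1. Between the control sets, set 2 over set 1, it was -1.04 (SE 0.19, adjusted p = 0.0473). With both sets pooled as controls, the genotype log2 FC of Cldn4 was 0.46 (adjusted p = 0.761). Without replicate 1 of control set 2, the highest of its set, the difference from the mutants passed the threshold (1.34, adjusted p = 0.000715). The difference from control set 1 then passed it too (-1.30, adjusted p = 0.00713). With each mouse left out in turn, the adjusted p reached up to 0.0686 against the mutants and 0.141 against control set 1.

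Cldn8, a sealing claudin of the distal colon that limits the back-leak of sodium taken up under aldosterone, showed the opposite order. It was at 85.3, 79.5 and 66.8 CPM in untreated mutants, and at 154, 140 and 111 CPM in control set 2. Control set 1 held 96.3, 81.5 and 74.2 CPM. All libraries of control set 2 were above all other libraries of the study, whereas the mutants overlapped control set 1. The log2 FC of the mutants was -0.81 (SE 0.12, adjusted p = 0.0123) over control set 2 and -0.12 (SE 0.11, adjusted p = 0.571) over control set 1. Set 2 over set 1 gave 0.69 (SE 0.13, adjusted p = 0.0508). Without replicate 3 of control set 2, the lowest of its set, the difference of the mutants passed the threshold (-0.93, adjusted p = 0.00578). With each mouse left out in turn, its adjusted p reached up to 0.0577.

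**Figure D3:**
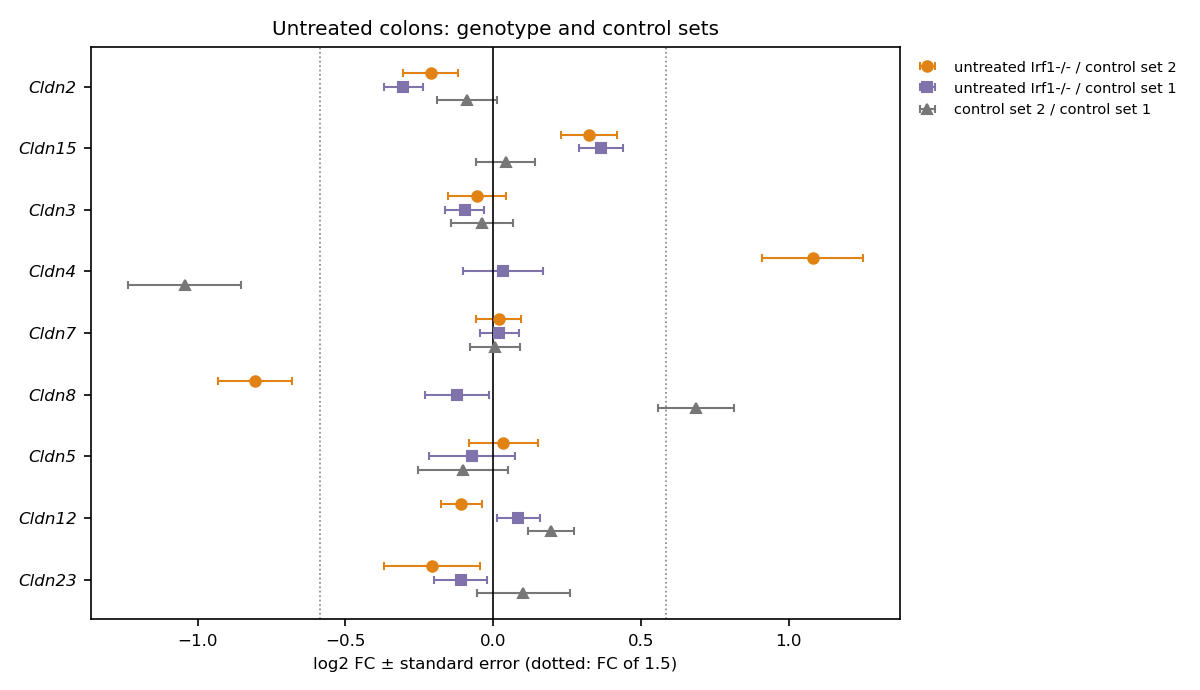
Log2 FC ± standard error (x axis) of each claudin in untreated colons, for mutants over control set 2 (circles), mutants over control set 1 (squares) and control set 2 over set 1 (triangles). For Cldn4 and Cldn8 the difference from control set 2 has about the size of that between the control sets, with the opposite sign, and the difference from control set 1 is near 0.

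The ratio of Cldn8 to Cldn4 within a library does not depend on how libraries are scaled. Per kb it was 3.06, 4.37 and 3.55 in control set 2, and 0.933 to 1.22 in control set 1. Untreated mutants had 0.837 to 1.22 and treated B6 mice 0.967 to 1.20, overlapping control set 1. Treated Irf1-/- mice had the lowest ratios, 0.477, 0.598 and 0.562, below every other library. Across the 15 libraries Pearson's r of log2 CPM between Cldn4 and Cldn8 was -0.72, and after subtraction of group means it was 0.56, so the opposite order lay between groups and not among mice of 1 group.

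**Figure D4:**
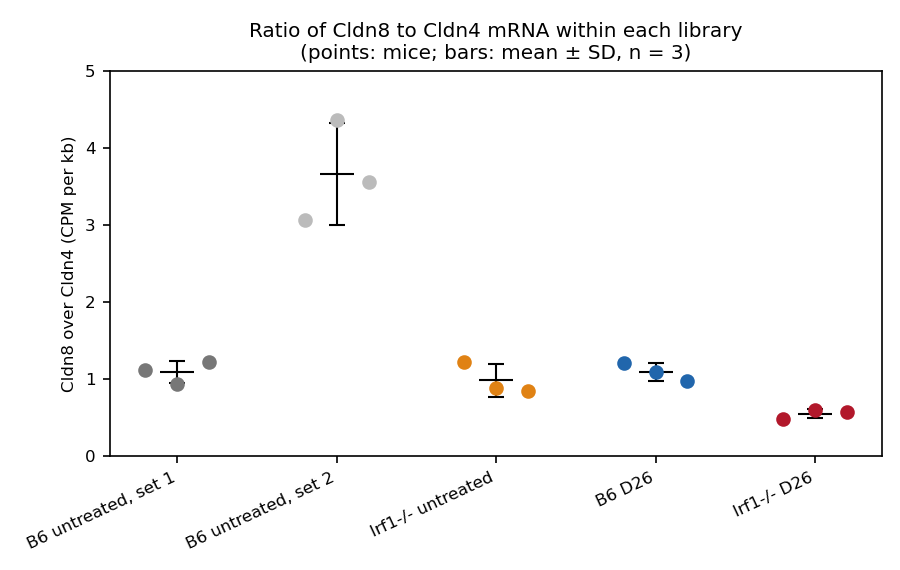
Ratio of Cldn8 to Cldn4 (y axis, CPM per kb over CPM per kb) within each library of the 5 groups, with 1 point per mouse and bars for the mean ± SD (n = 3). Control set 2 lies at 3.06 to 4.37 and treated Irf1-/- mice at 0.477 to 0.598, on either side of the other 3 groups.

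Marker genes of colon cell types were read in the same libraries. The 13 surface colonocyte markers summed to 11260 to 15200 CPM in control set 2, below control set 1 (15330 to 17040 CPM) and overlapping the untreated mutants (13310 to 14540 CPM). The 9 goblet cell markers summed to 20750 to 26220 CPM in control set 2 against 10490 to 17280 CPM in set 1. Untreated mutants held 21940 to 23080 CPM of them, within the range of control set 2 and above set 1. Sgk1, the aldosterone-induced kinase that raises sodium uptake, was at 258, 181 and 182 CPM in control set 2, above control set 1 (53.5 to 136 CPM) and untreated mutants (76.0 to 133 CPM). Its log2 FC in mutants over control set 2 was -1.11 (SE 0.21, adjusted p = 0.0380). Sgk1 had the smallest p of the 9 genes listed for aldosterone-regulated sodium uptake, of which 7 had a positive log2 FC in this comparison (median 0.00), among them the sodium channel subunit Scnn1b with 0.57 (SE 0.20, adjusted p = 0.311). The part of these markers in the Cldn4 and Cldn8 values was not tested. With libraries scaled to the epithelial markers instead of TMM, the log2 FC of the mutants over control set 2 was 1.097 for Cldn4 (adjusted p = 0.00113) and -0.80 for Cldn8 (adjusted p = 0.00420), both past the threshold.

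The response of B6 mice to AOM/DSS was tested against control set 1, and Cldn15 stood out among the claudins. Of the 9, 0 were called (0.0475% of 12643 genes), 2 were at an adjusted p under 0.05 (Cldn15 and Cldn23, 8.46% of genes) and 4 were at an unadjusted p under 0.05 (29.5% of genes). DESeq2 and the exact test each called 1, Cldn15. The groups did not overlap for 4 claudins, Cldn3, Cldn12, Cldn15 and Cldn23, beside 34.5% of genes. The median log2 FC was 0.16 over the claudins and 0.01 over all genes.

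In Irf1-/- mice the response gave 0 called claudins (0.252% of 12692 genes), 0 at an adjusted p under 0.05 (2.37% of genes) and 4 at an unadjusted p under 0.05 (18.6% of genes). DESeq2 and the exact test each called 0. For Cldn5, Cldn8 and Cldn12 the treated and untreated mutants did not overlap, beside 25.1% of genes. The median log2 FC was -0.09 over the claudins and 0.01 over all genes.

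Whether the genotypes responded differently was tested as an interaction, the Irf1-/- response minus the B6 response. By the quasi-likelihood test 0 claudins were called (0.016% of 12483 genes), 0 were at an adjusted p under 0.05 (0.0481% of genes) and 5 were at an unadjusted p under 0.05 (16.9% of genes), and DESeq2 called 0. All 5 of these, Cldn3, Cldn7, Cldn8, Cldn15 and Cldn23, had a negative difference. The mean response over both genotypes, a contrast of the same fit, gave 0 called (1.3% of genes), 2 at an adjusted p under 0.05 (Cldn12 and Cldn15, 17.9% of genes), 6 at an unadjusted p under 0.05 (34.2% of genes) and 0 by DESeq2. The single responses share these libraries with both contrasts.

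Among treated mice, Irf1-/- against B6, Cldn8 and Cldn23 were lower in the mutants by more than 1.5-fold. The quasi-likelihood test called 0 of 9 claudins (0.385% of 12483 genes), with 2 at an adjusted p under 0.05 (Cldn8 and Cldn23, 2.05% of genes) and 6 at an unadjusted p under 0.05 (22.0% of genes). DESeq2 and the exact test each called 2, Cldn8 and Cldn23. The genotypes did not overlap for 5 claudins, Cldn2, Cldn3, Cldn7, Cldn8 and Cldn23, all lower in the mutants, beside 28.1% of genes. The median log2 FC was -0.26 over the claudins and -0.01 over all genes. Over the 15 epithelial markers it was -0.22, with 2 of them positive. Over the 13 surface colonocyte markers it was -0.38, with 4 positive.

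**Figure D5:**
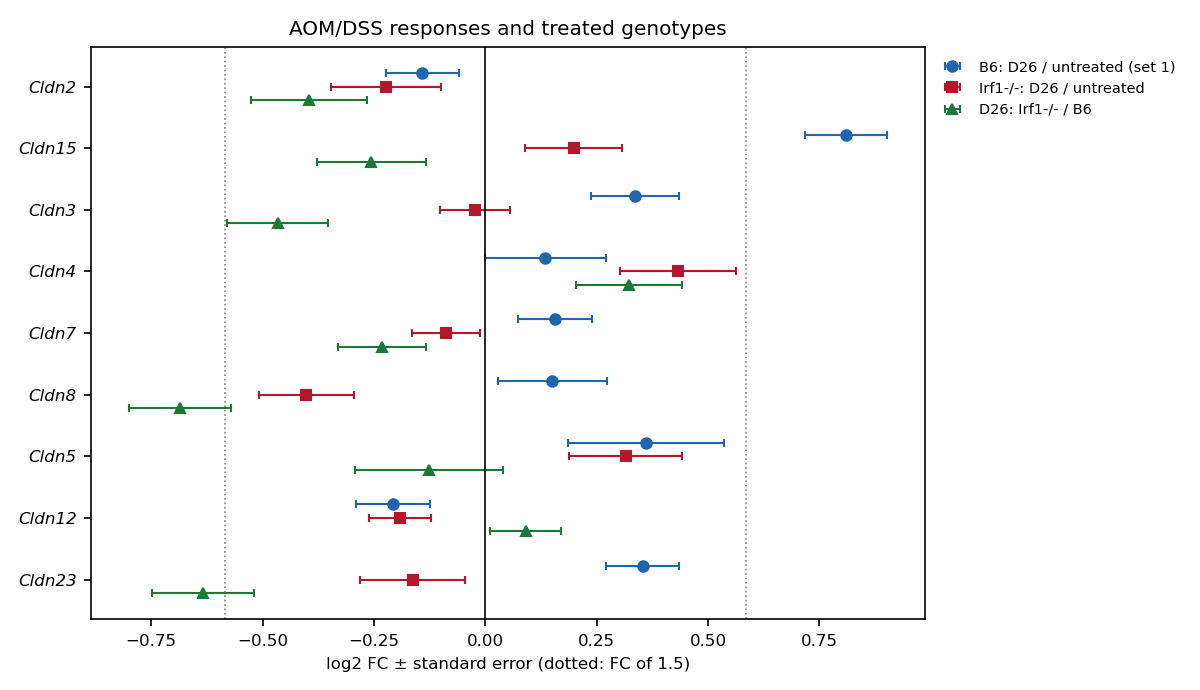
Log2 FC ± standard error (x axis) of each claudin at D26 over untreated in B6 mice (circles) and in Irf1-/- mice (squares), and in treated Irf1-/- over treated B6 mice (triangles). Cldn15 has the largest response in B6 mice (0.81), and Cldn8 and Cldn23 have the lowest values between treated genotypes (-0.69 and -0.63).

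Of the pore-forming claudins, Cldn15 forms cation pores that return sodium to the gut lumen for coupled nutrient uptake. It was at 69.9, 83.9 and 74.9 CPM in treated B6 mice and at 42.8, 41.9 and 46.6 CPM in control set 1. Every treated library was above every untreated B6 library, control set 2 included (40.5, 43.0 and 51.6 CPM). The log2 FC in B6 mice was 0.81 (SE 0.09, adjusted p = 0.0122), just short of the threshold, and 0.77 (adjusted p = 0.00907) with control set 2 as controls, past it. With the GC correction it was 0.69 (adjusted p = 0.0345), and with scaling to the epithelial markers 0.68 (adjusted p = 0.0107). Without replicate 1 or replicate 2 of the treated B6 mice it was 0.87 (adjusted p = 0.00413) or 0.74 (adjusted p = 0.0089), past the threshold. With each mouse left out in turn, the adjusted p of this response reached up to 0.0469.

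In Irf1-/- mice Cldn15 was at 76.0, 60.0 and 57.7 CPM after treatment and at 55.4, 60.8 and 53.0 CPM before. The 2 groups overlapped, with a log2 FC of 0.20 (SE 0.11, adjusted p = 0.383). Untreated mutants already lay above both control sets, with a log2 FC of 0.32 (SE 0.09, adjusted p = 0.203) over set 2 and 0.36 (SE 0.07, adjusted p = 0.0212) over set 1. The interaction for Cldn15 was -0.61 on the log2 scale (SE 0.15, adjusted p = 0.0993), and -0.51 (adjusted p = 0.287) with the GC correction. Over both genotypes the mean response was 0.50 (SE 0.07, adjusted p = 0.00201), under the fold threshold.

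Cldn2 forms channels for cations and water and is known to be induced in colitis. In treated mutants it was at 82.1, 84.2 and 115 CPM, and in treated B6 mice at 122, 116 and 127 CPM. The untreated values were 126, 143 and 137 CPM in control set 1, 118, 115 and 148 CPM in control set 2, and 115, 107 and 107 CPM in mutants. In neither genotype was the mean higher after treatment than before. The log2 FC was -0.14 (SE 0.08, adjusted p = 0.277) for the B6 response, -0.22 (SE 0.12, adjusted p = 0.382) for the Irf1-/- response and -0.40 (SE 0.13, adjusted p = 0.134) between treated genotypes. With scaling to the epithelial markers it was -0.17 (adjusted p = 0.338) between treated genotypes. Untreated mutants were at -0.21 (SE 0.09, adjusted p = 0.475) against control set 2 and -0.30 (adjusted p = 0.0265) against control set 1. Per kb, the ratio of Cldn15 to Cldn2 was 0.468 to 0.597 in the untreated B6 libraries, 0.769 to 0.907 in untreated mutants, 0.914 to 1.16 in treated B6 mice and 0.801 to 1.48 in treated mutants. The ratio was thus higher in every other library than in the untreated B6 libraries of either set.

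The abundant sealing pair, Cldn3 and Cldn7, was higher in treated B6 than in treated Irf1-/- mice. Cldn3 was at 307, 259 and 313 CPM in treated B6 mice and at 234, 198 and 213 CPM in treated mutants, and untreated libraries held 191 to 251 CPM. Its log2 FC was -0.47 (SE 0.11, adjusted p = 0.0710) between treated genotypes, 0.34 (SE 0.10, adjusted p = 0.0657) for the B6 response and -0.02 (SE 0.08, adjusted p = 0.914) for the Irf1-/- response. Cldn3 has the most GC-rich transcript of the 9. With the GC correction the log2 FC was -0.27 (adjusted p = 0.301) between treated genotypes and 0.10 (adjusted p = 0.568) for the B6 response. With scaling to the epithelial markers it was -0.235 (adjusted p = 0.176) between treated genotypes. Cldn7 was at 362, 383 and 392 CPM in treated B6 mice and 352, 301 and 327 CPM in treated mutants, without overlap, and at 317 to 369 CPM in untreated libraries. The log2 FC between treated genotypes was -0.23 (SE 0.10, adjusted p = 0.214), -0.08 (adjusted p = 0.748) with the GC correction and -0.00 with scaling to the epithelial markers. The summed epithelial markers were 10590 to 11050 CPM in treated B6 mice against 8723 to 9933 CPM in treated mutants, also without overlap. The part of the epithelial share of the tissue in the lower Cldn3 and Cldn7 was not tested beyond that scaling.

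In treated mice Cldn8 lay apart by genotype. It was at 57.0, 52.9 and 65.1 CPM in treated mutants and at 99.5, 99.7 and 79.0 CPM in treated B6 mice. The mutants were below every other library of the study, the untreated mutants included. The log2 FC was -0.69 (SE 0.11, adjusted p = 0.0241) between treated genotypes and -0.40 (SE 0.11, adjusted p = 0.0893) for the Irf1-/- response. The B6 response of Cldn8 turned with the control set, from 0.15 (SE 0.12, adjusted p = 0.434) over set 1 to -0.53 (adjusted p = 0.0349) over set 2. Cldn8 has the lowest GC content of the 9, and with the GC correction the difference between treated genotypes was -0.92 (adjusted p = 0.00812), past the threshold. With scaling to the epithelial markers it was -0.46 (adjusted p = 0.0292).

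Cldn4 was at 92.0, 68.2 and 89.3 CPM in treated mutants and at 63.9, 70.5 and 63.0 CPM in treated B6 mice. These groups overlapped. The log2 FC was 0.32 (SE 0.12, adjusted p = 0.167) between treated genotypes and 0.43 (SE 0.13, adjusted p = 0.121) for the Irf1-/- response. With scaling to the epithelial markers the difference between treated genotypes was 0.55 (adjusted p = 0.0143), short of the threshold. The log2 FC of the B6 response was 0.13 (SE 0.14, adjusted p = 0.536) over control set 1. Over control set 2 it was 1.18 (adjusted p = 0.00932), past the threshold with that set. The interaction also turned with the control set, from 0.30 (SE 0.21, adjusted p = 0.481) to -0.74 (SE 0.24, adjusted p = 0.195) for Cldn4, and from -0.55 (SE 0.18, adjusted p = 0.160) to 0.14 (SE 0.19, adjusted p = 0.775) for Cldn8. With the GC correction and control set 1 the interaction of Cldn8 was -0.77 (adjusted p = 0.171).

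Cldn23, a claudin of the colon surface, was at 32.3, 33.0 and 32.5 CPM in treated B6 mice and 24.1, 20.8 and 18.8 CPM in treated mutants. The treated B6 libraries lay above control set 1 (24.4 to 26.4 CPM), whereas 1 library of control set 2 reached 35.7 CPM. Between treated genotypes the log2 FC was -0.63 (SE 0.12, adjusted p = 0.0318), with -0.51 (adjusted p = 0.104) after the GC correction and -0.40 (adjusted p = 0.0603) with scaling to the epithelial markers. The B6 response was 0.35 (SE 0.08, adjusted p = 0.0371), or 0.22 (adjusted p = 0.175) after the GC correction, the Irf1-/- response -0.16 (SE 0.12, adjusted p = 0.520) and the interaction -0.51 (SE 0.14, adjusted p = 0.116).

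Cldn12, which has been linked to calcium passage, was lower after treatment in both genotypes. It was at 71.9, 70.8 and 76.6 CPM in treated B6 mice and 82.7, 92.0 and 80.0 CPM in control set 1. In mutants it was at 74.9, 82.5 and 79.0 CPM after treatment and 91.8, 94.6 and 84.0 CPM before. The treated groups did not overlap their untreated groups. The mean response was -0.21 (SE 0.05, adjusted p = 0.0192), from single responses of -0.21 (SE 0.08, adjusted p = 0.135) in B6 and -0.19 (SE 0.07, adjusted p = 0.185) in Irf1-/- mice, and the interaction was 0.02 (SE 0.10, adjusted p = 0.943). With the GC correction the mean response was -0.13 (adjusted p = 0.176).

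Cldn5 is best known from the tight junctions of blood vessels. It was at 13.5, 9.66 and 11.3 CPM in treated B6 mice and 10.98, 11.6 and 9.41 CPM in treated mutants. Untreated libraries held 7.45 to 10.2 CPM. The mean response was 0.33 (SE 0.11, adjusted p = 0.0518), or 0.22 (adjusted p = 0.228) with the GC correction, and the difference between treated genotypes -0.13 (SE 0.17, adjusted p = 0.683). The 15 endothelial markers were all counted and summed to 401 to 424 CPM in treated B6 and 398 to 480 CPM in treated mutant libraries, above all untreated libraries (309 to 359 CPM). By the quasi-likelihood test 0 of these markers were called in the mean response, with 11 of 15 at an unadjusted p under 0.05 (34.2% of all genes) and 0 called by DESeq2 (1.3% of all genes were called by the quasi-likelihood test). At an adjusted p under 0.05 there were 10 of 15 (17.9% of all genes). All 15 had a positive mean response, with a median log2 FC of 0.27. Vwf, a clotting protein of endothelium, had a mean response of 0.42 (SE 0.06, adjusted p = 0.00208), under the fold threshold. The part of the endothelial share in the Cldn5 values was not tested.

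Of 19 further claudin and claudin-domain symbols looked up, 2 were in the tables. Cldn1, a sealing claudin most abundant in skin, was low, at 7.57 to 8.12 CPM in control set 1 and 9.64 to 14.3 CPM in control set 2. Treated mutants had 10.8 to 12.5 CPM and untreated mutants 7.86 to 9.83 CPM, with a log2 FC of 0.41 (SE 0.13, adjusted p = 0.134). Values under the symbol Cldn25 (13.4 to 22.3 CPM) were not assigned to a gene, since this symbol has named more than 1 gene. The other 17 symbols were not in the tables, which hold genes of at least 5 CPM in 3 libraries.

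Other genes of the junctions and of claudin regulation were looked up by lists. Of 37 tight junction partners listed, such as the scaffold Tjp1 and occludin, 36 were counted. The quasi-likelihood test called 0 of them in each of the 7 comparisons, with 5 to 13 at an unadjusted p under 0.05. There were 10 for untreated mutants against control set 2 (10.4% of all genes) and 7 between the control sets (17.2%). The B6 response had 9 (29.5%), the Irf1-/- response 5 (18.6%) and the mean response 10 (34.2%). The interaction had 11 (16.9%), and the treated genotypes had 13 (22.0%). Over all genes the share at an unadjusted p under 0.05 was 10.4% to 34.2% in these comparisons, which also stands beside the counts of the lists that follow. DESeq2 and the exact test each called 1 of them, in the Irf1-/- response. Tjp1, the scaffold that ties claudins to actin, had a log2 FC of -0.26 (adjusted p = 0.0611) in the B6 response, and Pard6g, a polarity protein, 0.61 (adjusted p = 0.0398) in the Irf1-/- response. Of 15 adherens junction and desmosome genes, 1 was called by the quasi-likelihood test, in the mean response: the nectin Pvrl1, with 0.72 (SE 0.10, adjusted p = 0.00140). Of 23 genes that regulate claudin transcription (transcription factors and cytokine receptors), 0 were called in any comparison, with 1 to 9 at an unadjusted p under 0.05, and DESeq2 and the exact test each called 1, in the Irf1-/- response. Tnfrsf1b, a TNF receptor, had a mean response of 0.58 (adjusted p = 0.00261), below 1.5-fold. Of 9 genes of aldosterone-regulated sodium uptake, 0 were called in any comparison by the quasi-likelihood test or DESeq2, with 0 to 3 at an unadjusted p under 0.05, and the exact test called 1 in each of the comparisons with control set 2 among untreated mice. The call in the mean response stands beside 1.3% of all genes called there.

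For each claudin the genes with the most similar profile across the 15 libraries were found by Pearson's r of log2 CPM, among 10856 genes with a mean of at least 10 CPM. Cldn15 had the closest match, Slc9a3r2, a scaffold of the apical sodium-hydrogen exchanger (r = 0.958), followed by St6galnac6 (0.945) and Plcd3 (0.941). Cldn2 lay nearest to Selenbp1 (0.934), Sult1a1 (0.929) and Selenbp2 (0.920), and the 2 Selenbp genes are close copies that may share reads. Cldn3 was nearest to the kinase Src (0.925), 2510039O18Rik (0.921) and Tspan1 (0.918), and Cldn7 to Abca7 (0.862), Oaf (0.862) and the epithelial keratin Krt8 (0.858). The remaining neighbours were Pla2g7 (0.897), Vill (0.887) and Ssfa2 (0.886) for Cldn4, and Ryr1 (0.856), Dctpp1 (0.850) and Rbl1 (0.841) for Cldn8. Sgms1 (0.897), C78339 (0.895) and Amot (0.894), a tight junction partner, were nearest to Cldn12. For Cldn23 they were Prkcd (0.867), Fbxo6 (0.861) and 9130017N09Rik (0.844), and for Cldn5 Ing4 (0.890), Mical1 (0.874) and Numa1 (0.866). After subtraction of group means the r of Cldn15 with Slc9a3r2 was 0.838 and that of Cldn3 with Src 0.891, whereas that of Cldn8 with Dctpp1 was 0.0369. These libraries share groups and depth, the treated B6 libraries differ from the others in GC slope, and r is given as a description.

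Between claudins, Cldn3 and Cldn7 were the most alike (r = 0.84 over 15 libraries, 0.75 after subtraction of group means). Cldn3 and Cldn23 followed with 0.75 (0.43 after subtraction), and Cldn12 and Cldn15 were the most opposed with -0.75 (-0.41 after subtraction). The neighbours Cldn3 and Cldn4 had r = 0.12.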

How the data were processed

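RNA-seq of distal colon from 15 mice was used, 3 mice per group and 1 library each. Raw counts of reads on genes, as the authors deposited them in 3 tables, were the starting point. Per the labels, rRNA-depleted stranded libraries were read as 50 bp pairs, and the submitters' processing notes name TopHat2 2.0.9, Bowtie 1.0.0, featureCounts, edgeR and mm9. The tables hold genes that reached 5 CPM in 3 libraries or more, a filter of the authors. The 36 columns of the authors' CPM and log CPM, and their columns of fold changes, dispersions, p-values and adjusted p-values, were not used. Counts of the untreated mutants are identical in 2 tables and were used once.

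Counts were scaled by TMM in edgeR 4.0.16 (R 4.3.3) and tested with its quasi-likelihood model on all genes of a comparison, with Benjamini-Hochberg adjustment over all of them. The calling threshold, taken from the methods of the study, was a 1.5-fold change and an adjusted p below 0.01. Standard errors were taken from the log2 FC and its F statistic. Library totals were 22266607 to 22869853 counts, and counts of replicate libraries differed over all genes by a chi-square of 8.65 to 42.7 for each degree of freedom. Labels call the libraries biological replicates and do not say whether mice shared a cage or litter.

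Levels are TMM-scaled CPM over the 12370 genes in all tables, and levels per kb use the exon length in GENCODE M21, in which Cldn3 shares 40 of its 1259 exon bases with the opposite-strand gene Wbscr25. GC content of the longest GENCODE transcript was found for 12788 of 12897 genes. Listed genes were looked up by the symbol of the older annotation where the tables hold it. Log2 CPM for correlations used a prior count of 2. Python 3.11.15, numpy 2.4.6, pandas 2.3.3 and matplotlib 3.10.9 were used.

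The claudins, the gene lists and the tests were chosen with earlier results of these data known. Genes named besides the claudins were the called members of each list or, with none called, up to 2 with the smallest p in a comparison, and the 3 genes nearest to each claudin. Irf1 served to check the labels. The alternatives used DESeq2 1.42.0 (Wald test), the exact test of edgeR, RLE scaling, all 15 libraries in 1 fit, a filter of 10 CPM, an adjusted p under 0.05, scaling to the epithelial markers, a lowess correction for GC (span 0.3), the replicate number as a block without and with that correction, the other or both control sets, and each mouse left out. The fit was tested on simulated data with known changes before use. The result of 1 further gene list is not reported here.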

Additional observations from a re-analysis of the deposited data

How the results depend on the processing

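The quasi-likelihood test with RLE scaling called 0 claudins in every comparison, as with TMM. Apart from an adjusted p under 0.05, no share of all genes called stands beside the counts of the alternatives below. For untreated mutants against control set 2, DESeq2, the exact test, 15 libraries in 1 fit, scaling to the epithelial markers and an adjusted p under 0.05 each gave 2 (Cldn4 and Cldn8), the GC correction 1 (Cldn8), and leaving out each mouse 0 to 1 (1 without replicate 1 of set 2, Cldn4, and 1 without replicate 3 of set 2, Cldn8). With control set 1, or both sets, as controls there were 0. For the B6 response, DESeq2, the exact test, 15 libraries in 1 fit, the 10 CPM filter and both control sets each gave 1 (Cldn15), control set 2 gave 2 (Cldn4 and Cldn15), an adjusted p under 0.05 gave 2, and leaving out each mouse 0 to 1 (1 without replicate 1 or replicate 2 of the treated B6 mice, Cldn15). Between treated genotypes, DESeq2, the exact test and an adjusted p under 0.05 gave 2 (Cldn8 and Cldn23), the GC correction and 15 libraries in 1 fit 1 (Cldn8), and leaving out each mouse 0. Between the control sets, DESeq2 and the exact test gave 2, an adjusted p under 0.05 gave 1 (Cldn4), and leaving out each mouse 0 to 1 (1 without replicate 1 of set 2, Cldn4). The mean response gave 1 with control set 2 (Cldn4) and 2 at an adjusted p under 0.05. The Irf1-/- response and the interaction gave 0 under each alternative, leaving out each mouse included. The exact test was not run for the interaction and the mean response, since it compares groups in pairs. The cause of these shifts was not tested.

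The labels do not say whether the replicate numbers pair the mice. Same-numbered libraries correlated between -0.223 and 0.248 in their deviations from group means. With the number as a block, and with the block and the GC correction together, 1 claudin (Cldn8) was called for untreated mutants against control set 2, and 0 in every other comparison. Of the log2 FC of single claudins under all alternatives, 1018 kept their direction and their side of the threshold, 34 kept their direction and passed it, and 52, all uncalled, changed sign. All 45 group levels moved by less than 1 SD with scaling by library total.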

Other observations

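Among the listed genes other than claudins, those called in the mean response to AOM/DSS included squamous keratins and goblet cell genes. Krt14 and Krt5, keratins of basal squamous cells, were at 184 ± 71.7 and 91.9 ± 36.8 CPM in treated B6 mice (SD, n = 3) and at 236 ± 110.1 and 133 ± 66.5 CPM in treated mutants, against 60.5 ± 10.7 and 38.3 ± 11.7 CPM in control set 1. They rose by 1.79 (SE 0.22, adjusted p = 0.000856) and 1.52 (SE 0.25, adjusted p = 0.00287) on the log2 scale. Krt6a rose by 1.83 (SE 0.23, adjusted p = 0.000885). These 3 of the 5 counted mesothelial and squamous markers were called (1.3% of all genes were called in this contrast), and Msln, Upk3b and Wt1 were not in the tables. The distal colon borders the squamous epithelium of the anal canal, and the share of such tissue in a sample was not tested.

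Goblet cell genes called in the mean response were Muc2, the main secreted mucin, with 0.96 (SE 0.19, adjusted p = 0.00717), Fcgbp with 0.70 (SE 0.13, adjusted p = 0.00486), Clca3 (now Clca1 in RefSeq) with 0.81 (SE 0.17, adjusted p = 0.00817) and Spdef with 0.67 (SE 0.14, adjusted p = 0.00932), 4 of 9 markers beside 1.3% of all genes. In the B6 response, against control set 1, 7 of the 9 were at an adjusted p under 0.05 (8.46% of all genes), with a median log2 FC of 0.97. In the Irf1-/- response 0 were (2.37% of all genes), with a median of 0.25. Control set 2 was above control set 1 for all 9, with a median of 0.62. Of the 13 surface colonocyte markers, Dhrs9 rose by 2.36 (SE 0.39, adjusted p = 0.00282) and Car1, a carbonic anhydrase of the colon surface, fell by 0.80 (SE 0.15, adjusted p = 0.00465). Untreated, Dhrs9 was low, at 2.73 to 3.55 CPM in control set 1, 5.54 to 5.64 CPM in set 2 and 4.80 to 8.32 CPM in mutants. Treated B6 libraries held 7.20, 39.9 and 11.3 CPM of it, and treated mutants 46.8, 20.3 and 20.2 CPM. Of the 9 leukocyte markers counted, Tyrobp rose by 0.60 (SE 0.12, adjusted p = 0.00747). The stem cell receptor Lgr5 had -0.38 (adjusted p = 0.00201), a fold under 1.5. Of 8 smooth muscle and 6 fibroblast markers, 0 were called in any of the 7 comparisons by the quasi-likelihood test, DESeq2 or the exact test, with 0 to 1 and 0 to 2 at an unadjusted p under 0.05. Of the 8 posterior Hox genes, expressed along the hindgut, likewise 0 were called, with 0 to 4 at an unadjusted p under 0.05 (10.4% to 34.2% of all genes).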
